A study of Mus musculus with 54 samples.

Results

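Monoamines are the neurotransmitters serotonin, dopamine, noradrenaline and adrenaline, and 8 genes for making, packing and retrieving them were followed here through laser-captured mouse motor neurons. The genes were listed by symbol: Th, Tph2, Ddc, Dbh, Gch1, Slc18a2, Slc6a4 and Fev. All 8 of the 8 symbols were found among the 55354 mouse genes of the deposited count table, and 7 of them passed a filter on low counts that left 18493 genes for testing. Fev did not pass. The list was drawn up with the levels of these genes in these libraries known, so levels by nucleus are given as a description, with no test, and the 8 genes were tested for genotype only.

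The pathway runs in a fixed order. Th (tyrosine hydroxylase) makes the rate-limiting step towards the catecholamines and Tph2 (tryptophan hydroxylase of the brain) the rate-limiting step towards serotonin. Ddc, a decarboxylase, completes dopamine in the first branch and serotonin in the other, and Dbh turns dopamine into noradrenaline. Gch1 starts the synthesis of tetrahydrobiopterin, the cofactor of both hydroxylases. Slc18a2 is the vesicular monoamine transporter that fills synaptic vesicles, Slc6a4 is the serotonin transporter that takes serotonin back up, and Fev is a transcription factor of serotonergic neurons. Motor neurons release acetylcholine. Catecholaminergic neurons lie in and beside the dorsal motor nucleus of the vagus, and serotonergic raphe neurons lie near the midline of the brainstem, close to the oculomotor nuclei and the hypoglossal nucleus.

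The 54 libraries were bulk Smart-seq2 libraries of polyadenylated RNA from captured neurons. Motor neurons were taken from 4 sites. CN10 is the vagus nucleus, whose neurons serve inner organs, CN12 is the hypoglossal nucleus of the tongue, CN3/4 stands for the oculomotor and trochlear nuclei of the eye muscles, and SC for the spinal cord. The mice were SOD1G93A transgenic animals (mSOD), a model of the motor neuron disease ALS made with a mutated human SOD1 gene, or wild-type littermates. They were taken at postnatal day 56 (P56), before symptoms, or at P112, with symptoms. There were 16 groups of 3 libraries, with 5 in both SC groups at P56 and in SC wild type at P112. The transgene is carried by all cells of the mouse, not by motor neurons alone. Library totals ran from 1071477 to 8877994 counts with a median of 4231342.5, and SC libraries were shallower (median 2953711) than those of CN10 (4573267). Human SOD1 took 3.95% to 7.94% of the counts of each mSOD library, against 0.000444% to 0.00459% in wild-type libraries. Chat, the enzyme that makes acetylcholine, had 99 to 1190 counts per library at the 4 sites, and the summed level of 10 motor neuron markers was 1526 to 2417 CPM (counts scaled to library size) in CN10, below the 2813 to 4269 CPM of CN3/4. Mnx1, a marker of somatic motor neurons of the cord and of CN12, had at most 2 counts in a CN10 library.

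The sequences just upstream of 4 of the genes are shown because these 4 divide the study's monoamine signal. Th and Slc18a2 were high in CN10, while Tph2 and Slc6a4 were at or near 0 there and had their highest counts in 1 CN3/4 library. The sequences come from RefSeq and the build GRCm38.p6 and cover the bases from 220 to 21 before the annotated start of transcription, written 5′ to 3′ on the gene's own strand, with matches to 4 searched motifs in capitals on either strand.
Th, chr7:142900016-142900215, minus strand: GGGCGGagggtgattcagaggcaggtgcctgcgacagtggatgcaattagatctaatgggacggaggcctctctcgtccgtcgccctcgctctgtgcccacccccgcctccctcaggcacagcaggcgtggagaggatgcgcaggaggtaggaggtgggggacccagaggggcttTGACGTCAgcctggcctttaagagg
Slc18a2, chr19:59260658-59260857, plus strand: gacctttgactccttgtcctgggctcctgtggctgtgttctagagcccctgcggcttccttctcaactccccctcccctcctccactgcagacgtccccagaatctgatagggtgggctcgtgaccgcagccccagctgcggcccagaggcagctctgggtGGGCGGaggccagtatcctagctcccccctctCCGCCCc
Tph2, chr10:115185043-115185242, minus strand: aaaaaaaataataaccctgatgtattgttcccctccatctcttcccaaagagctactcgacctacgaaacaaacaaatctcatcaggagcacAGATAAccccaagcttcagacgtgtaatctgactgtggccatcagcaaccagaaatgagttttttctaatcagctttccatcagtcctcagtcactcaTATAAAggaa
Slc6a4, chr11:76998377-76998576, plus strand: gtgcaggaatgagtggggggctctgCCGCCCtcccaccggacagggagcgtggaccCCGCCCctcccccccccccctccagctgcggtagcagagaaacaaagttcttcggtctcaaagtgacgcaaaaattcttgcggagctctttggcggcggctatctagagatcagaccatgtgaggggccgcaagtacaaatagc
The motifs searched were the cyclic AMP response element TGACGTCA, the TATA box TATAAA, the GC box GGGCGG and the GATA site AGATAA. The Th window held a cyclic AMP response element 45 to 38 bases before the start, a motif found in 1.25% of 32851 promoter windows of this length, and a GC box at its far end. Tph2 had a TATA box 30 to 25 bases before the start (10.3% of windows hold one) and a GATA site at 128 to 123 (8.25% of windows). Slc18a2 and Slc6a4 had 2 GC boxes each and no TATA box in the window, and a GC box was found in 28.7% of all windows. These are matches of letters and no measure of binding.

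Th (ENSMUSG00000000214) was high in CN10, low in CN3/4 and at or near 0 in CN12 and SC. Its CN10 counts were 148, 139 and 229 in P56 wild type, 235, 200 and 68 in P56 mSOD, 220, 140 and 374 in P112 wild type, and 63, 91 and 293 in P112 mSOD. On the length-scaled RPKM scale the 12 CN10 libraries ran from 9.07 to 65.96 with a median of 22.02. Every CN10 library was above every other library. Th came next in CN3/4, where it was low but present in 12 of 12 libraries (2 to 51 counts, median 1.88 RPKM). In CN12 it had 1 count in 1 library, and in SC it was at 0 in 18 of 18 libraries, where 3 counts would correspond to at most 2.67 CPM. Over the wild-type libraries its mean level in CN10 was at least 64.7-fold that of CN12 and at least 38.4-fold that of SC, with both counted at a floor of 3 counts per library. Of all Th counts, 92.4% fell in CN10 and 7.56% in CN3/4.

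Dbh (ENSMUSG00000000889) was found almost only in CN10, which held 99.5% of its counts. The CN10 counts were 175, 158 and 352 in P56 wild type, 203, 116 and 19 in P56 mSOD, 125, 160 and 108 in P112 wild type, and 50, 75 and 233 in P112 mSOD. The median was 14.23 RPKM and the range 1.82 to 44.45, so libraries of the same nucleus differed widely. Dbh was at 0 in 12 of 12 CN3/4 and 12 of 12 CN12 libraries, including all those in which Th was present. In SC it had 8 counts in P56 mSOD replicate 4, 1 count in P112 mSOD replicate 3 and 0 in the other 16 libraries. In wild type its CN10 level was at least 61.6-fold that of CN3/4 and at least 32.2-fold that of SC on the same floor.

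Ddc (ENSMUSG00000020182), shared by both branches, was the most abundant of the 8 genes in CN10 on the RPKM scale. Its CN10 counts were 1511, 911 and 821 in P56 wild type, 2803, 1224 and 985 in P56 mSOD, 775, 941 and 986 in P112 wild type, and 591, 796 and 629 in P112 mSOD. The 12 libraries had a median of 143.5 RPKM and stood apart from every library of the other nuclei, whose highest value was 46.33 RPKM in CN3/4 P112 wild type replicate 3. The order by median was CN10, CN3/4 (3.19 RPKM), CN12 (1.79) and SC (0.630). Ranges of the last 3 overlapped, and Ddc was detected in 12 of 12 CN3/4, 11 of 12 CN12 and 11 of 18 SC libraries.

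Slc18a2 (ENSMUSG00000025094) was the only one of the 8 genes with counts in all 54 libraries. Its CN10 counts were 1023, 584 and 668 in P56 wild type, 1251, 771 and 1142 in P56 mSOD, 462, 590 and 428 in P112 wild type, and 341, 352 and 325 in P112 mSOD. The CN10 range of 26.28 to 75.59 RPKM lay above the range of each other nucleus. Medians were 47.76 RPKM in CN10, 4.67 in CN3/4, 4.55 in SC and 3.29 in CN12, and the last 3 overlapped. The vesicular transporter was measured at a low level also in SC, where Th was at 0 and Ddc was at 0 in 7 of 18 libraries. In CN10 its mean was 53.1 ± 10.5 RPKM (SD, n = 3) in P56 wild type and 44.3 ± 6.03 RPKM (SD, n = 3) in P112 wild type. In mSOD it was 62.3 ± 11.6 RPKM at P56 and 33.8 ± 7.45 RPKM at P112 (SD, n = 3 each). All CN10 P56 libraries carry the name prefix P11355 and all CN10 P112 libraries P10814, so age and prefix cannot be told apart and the ages were not compared by a test.

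Gch1 (ENSMUSG00000037580) was low and overlapped between nuclei. Its CN10 counts were 71, 48 and 28 in P56 wild type, 52, 15 and 25 in P56 mSOD, 67, 26 and 73 in P112 wild type, and 16, 29 and 63 in P112 mSOD. The CN10 median was 3.49 RPKM, above 0.812 in CN12, 0.664 in CN3/4 and 0.215 in SC, and CN10 held 64.2% of its counts. The highest library outside CN10 was CN12 P112 mSOD replicate 3 with 36 counts (3.98 RPKM), inside the CN10 range.

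**Figure D1:**
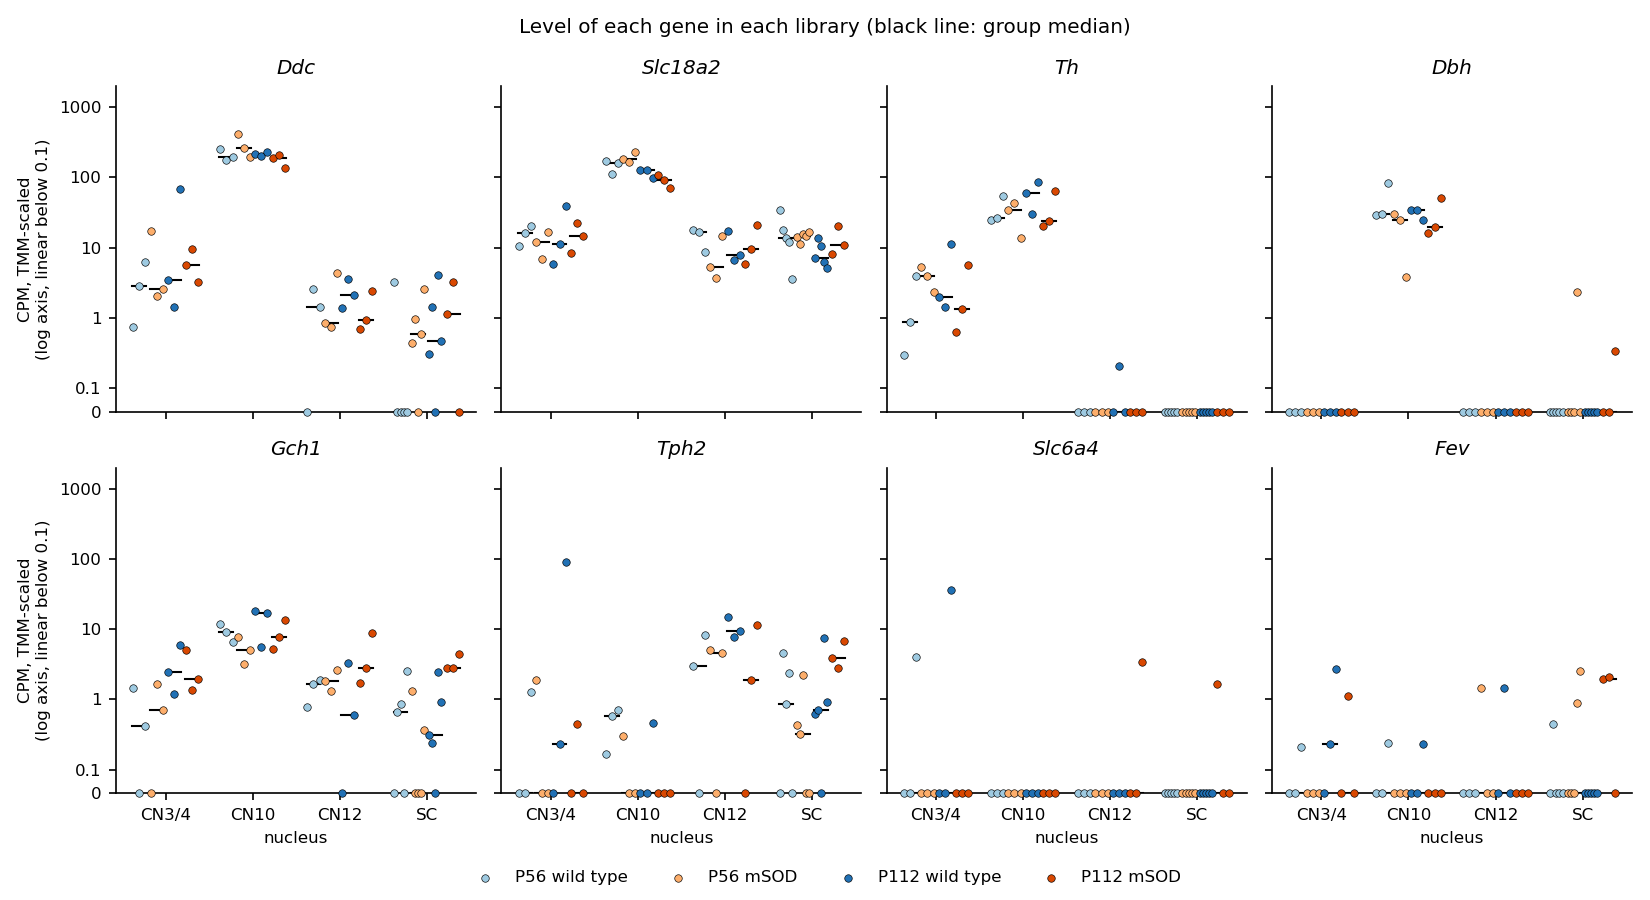
Level of each of the 8 genes in each of the 54 libraries, as CPM on a log axis that is linear below 0.1, by nucleus, age and genotype. Points are libraries and black lines are group medians. Th, Dbh, Ddc and Slc18a2 are highest in CN10 with no overlap, Gch1 is highest there with overlap, and Tph2, Slc6a4 and Fev are at or near 0 in CN10.

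The 4 abundant genes did not keep fixed proportions among the CN10 libraries. The RPKM ratio of Ddc to Th was above 1 in 12 of 12 libraries, with a median of 6.21 and a range of 2.04 to 13.7. Slc18a2 exceeded Th in 10 of 12 libraries (median ratio 2.00), and Ddc exceeded Slc18a2 in 12 of 12 (median 3.11, range 1.65 to 4.39). Dbh was below Th in all but 1 library, with a median ratio of 0.580. The lowest Dbh to Th ratio, 0.200, was in P56 mSOD replicate 3, the library with 19 Dbh counts, and the highest, 1.10, in P56 wild type replicate 3. P112 mSOD replicate 3 and P112 wild type replicate 3 had the highest Th levels of their groups. Their ratios of Ddc to Th, 2.04 and 2.49, were the lowest at that age. Th is the denominator, so a high Th level lowers this ratio by arithmetic. In bulk captures, a lower share of cells that express a gene and less RNA per cell cannot be told apart.

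**Figure D2:**
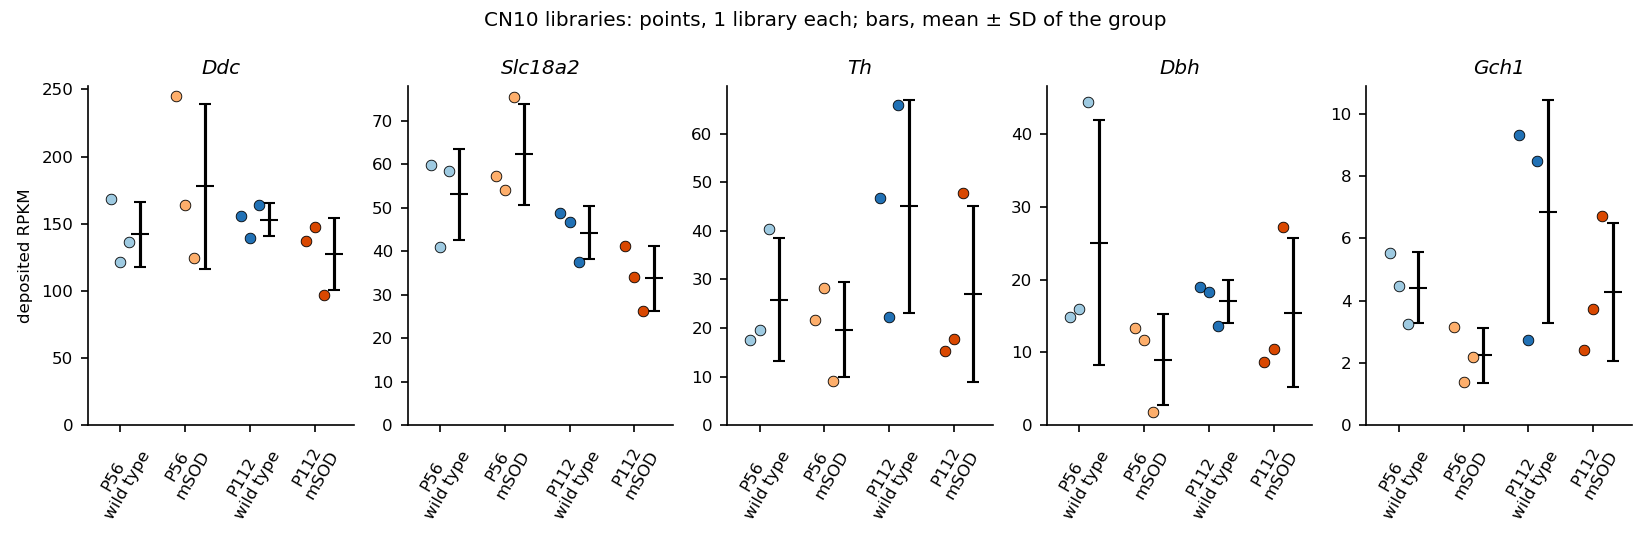
Deposited RPKM of the 5 genes found in every CN10 library, by age and genotype, with each axis starting at 0. Points are libraries and bars are the group mean ± SD (n = 3 each). Genotypes overlap for Ddc, Slc18a2 and Th at P56, whereas Dbh at P56 is 14.82 to 44.45 RPKM in wild type and 1.82 to 13.42 in mSOD, and Gch1 3.25 to 5.53 and 1.40 to 3.16. On the CPM scale the P56 ranges of Dbh and Gch1 overlap between genotypes.

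Markers of the neurons that use these amines, listed beside the 8 genes, were also read in CN10. Slc6a3, the dopamine transporter, had 13 to 61 counts in 12 of 12 CN10 libraries and at most 3 counts in a library of another nucleus. Nr4a2, a transcription factor known from dopaminergic neurons, had 359 to 1485 counts in CN10, whereas Pitx3, another one, had at most 2 counts and Lmx1a had 0 counts there. Slc6a2, the noradrenaline transporter, had counts in 7 of 12 CN10 libraries, from 1 to 43. Pnmt, the last enzyme towards adrenaline, had 10 and 8 counts in P56 wild type replicates 1 and 2, 1 count in P112 mSOD replicate 2 and 0 elsewhere. Hand2, a regulator of noradrenergic neurons, was at 0 in 54 of 54 libraries. Of the genes that define serotonergic neurons, Tph2 had 0 to 3 counts in CN10, Slc6a4 0 and Fev 0 to 1, and Tph1, the peripheral tryptophan hydroxylase, had 0 to 2. A set of 5 serotonergic markers outside the 8 genes (Maob, Gata2, Gata3, Lmx1b and Htr1a) was not low in CN10: it summed to 18.2 to 72.4 CPM, mostly from Maob, a monoamine oxidase, with 71 to 362 counts.

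Markers of other cell types also differed between CN10 and other sites, in directions that depended on the site. In wild type, 29.9% of all genes passed the test between CN10 and CN12, 37.9% between CN10 and CN3/4 and 37.7% between CN10 and SC. Of 6 astrocyte markers, 5 passed against CN12 (4 higher in CN10), 2 against CN3/4 (2 higher) and 3 against SC (3 higher), and their sum was 71.8 to 215 CPM in CN10, 44.9 to 91.9 CPM in CN12 and 47.7 to 143.7 CPM in CN3/4, with overlap. Of 6 oligodendrocyte markers, 5 were lower in CN10 than in CN12, 5 lower than in CN3/4, and 5 lower and 1 higher than in SC, and they summed to 91.8 to 178 CPM in CN10 and 146 to 316 CPM in CN12. Of 5 tested microglia markers, 2, 3 and 1 were higher than in CN12, CN3/4 and SC. Of 4 inhibitory neuron markers, 1 was higher than in CN12, 1 lower than in CN3/4, and 2 lower and 1 higher than in SC, with sums of 10.3 to 78.6 CPM in CN10, 1.20 to 43.0 CPM in CN12 and 42.4 to 499 CPM in SC. The part of these cells in the levels of the monoamine genes was not tested.

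Tph2 (ENSMUSG00000006764), the defining enzyme of serotonin neurons, had 420 counts over the CN3/4 libraries, 288 over CN12, 110 over SC and 11 over CN10. In CN3/4 nearly all came from 1 library: P112 wild type had 0, 1 and 403 counts, P56 wild type 0, 0 and 6, P56 mSOD 8, 0 and 0, and P112 mSOD 0, 2 and 0. In CN12 Tph2 was spread more evenly, with 15, 0 and 35 counts in P56 wild type, 42, 0 and 19 in P56 mSOD, 54, 37 and 31 in P112 wild type, and 0, 8 and 47 in P112 mSOD. So 9 of 12 CN12 libraries had more than 3 counts, against 3 of 12 in CN3/4, 0 of 12 in CN10 and 7 of 18 in SC. The CN12 median was 2.37 RPKM, above 0.365 in SC, and 0 in both CN10 and CN3/4, while the highest single value was the 45.0 RPKM of the CN3/4 library.

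Slc6a4 (ENSMUSG00000020838), which takes serotonin back up, was detected in 4 of 54 libraries. It had 162 counts in CN3/4 P112 wild type replicate 3, 19 in CN3/4 P56 wild type replicate 3, 14 in CN12 P112 mSOD replicate 3 and 6 in SC P112 mSOD replicate 1. Tph2 was present in each of these 4 libraries, with 403, 6, 47 and 14 counts. The reverse did not hold: the other 11 CN12 libraries had 241 Tph2 counts and 0 Slc6a4 counts, which allows Slc6a4 a share of up to 1.25% of the counts of both genes by the limit of 3 counts and up to 1.57% by the 95% Wilson interval. In CN3/4 P112 wild type replicate 3 that share was 28.7% (95% Wilson interval 25.1% to 32.5%), and in CN12 P112 mSOD replicate 3 it was 22.9% (14.2% to 34.9%). In CN3/4 P56 wild type replicate 3 it was 76.0% (56.6% to 88.5%), on 25 counts, so the share differed between libraries. Reads were not marked by molecular identifiers, so copies of the same molecule can be counted more than once. These intervals and the limit of 3 counts treat each read as an independent draw. They leave out the spread between libraries, so they are narrower than the real uncertainty. Fev (ENSMUSG00000055197) reached 12 counts in CN3/4 P112 wild type replicate 3 and in CN12 P56 mSOD replicate 1, and 9 in SC P112 mSOD replicate 2. It was at 0 in 41 of 54 libraries, among them CN12 P112 mSOD replicate 3.

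**Figure D3:**
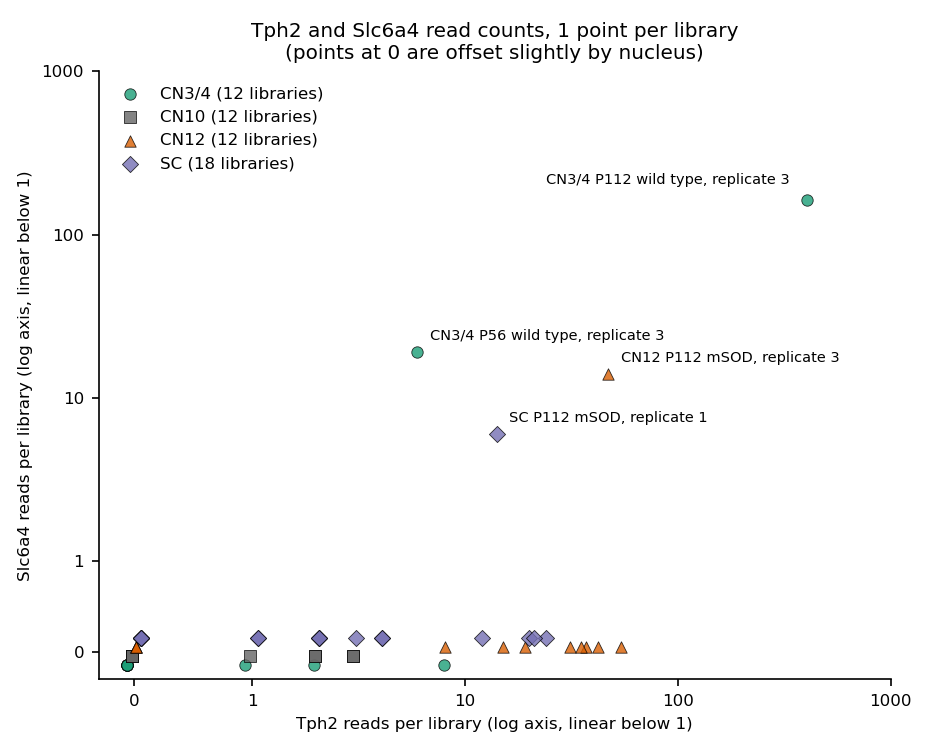
Read counts of Tph2 (x axis) and Slc6a4 (y axis) in each library, both on log axes that are linear below 1, with 1 point per library, symbols for the nucleus and points at 0 offset slightly by nucleus. The 4 libraries with Slc6a4 counts are named, and 9 CN12 libraries hold 8 to 54 Tph2 counts, 8 of them with no Slc6a4 count.

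CN3/4 P112 wild type replicate 3 stood apart from the other 11 CN3/4 libraries in more than these genes. Ddc had 304 counts there and 5 to 73 in the others, Slc18a2 173 against 24 to 100, Th 51 against 2 to 29, and Gch1 27 against 0 to 16. Dbh was at 0 in all 12. Markers of serotonergic neurons that are not among the 8 genes were higher as well: Maob had 90 counts against 0 to 23, Gata3 29 against 0 to 9, Gata2 13 against 0 to 5, Htr1a, the serotonin autoreceptor, 8 against 0 to 6, and Lmx1b 4 against 0 to 2. Together these 5 markers summed to 32.2 CPM against 0.146 to 7.60 CPM. The 7.60 CPM belonged to P56 wild type replicate 3, the other CN3/4 library with Slc6a4 counts. The motor neuron markers of the library that stood apart, 3123 CPM, lay inside the range of the others (2813 to 4269 CPM), as did its inhibitory, astrocyte and oligodendrocyte markers. In CN12 the same 5 markers summed to 1.03 to 5.23 CPM, with Gata2, Gata3 and Lmx1b at no more than 5 counts in a library. The CN10 sum of 18.2 to 72.4 CPM, in libraries with Tph2 and Slc6a4 at or near 0, spanned the 32.2 CPM of the CN3/4 library, so this sum, which Maob carries, did not follow Tph2 and Slc6a4 across nuclei. Gata2 and Gata3 had at most 6 and 4 counts in a CN10 library.

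The study asked how each nucleus responds to mutant SOD1, and none of the 8 genes differed between mSOD and wild type at an adjusted p under 0.05 in edgeR's quasi-likelihood test. This held in all 8 comparisons and for the 4 differences of the effect between ages. Few genes passed at all: 0% of 18493 genes at P56 and 0% at P112 in CN3/4, 0.0162% and 0% in CN10, 0.00541% and 0.0703% in CN12, and 0.541% and 0.47% in SC. For the differences between ages it was 0% in CN3/4, 0% in CN10, 0.0216% in CN12 and 0.00541% in SC. At an unadjusted p under 0.05 there were 3 of the 7 tested genes in CN3/4 P112 (Tph2, Slc6a4 and Ddc), where 3.17% of all genes were under it, and 1 in SC P112 (Gch1), where 9.86% were. None was found in the other 6 comparisons, where the share of all genes was 3.2% (CN3/4), 13.4% (CN10), 9.74% (CN12) and 12% (SC) at P56, and 3.62% (CN10) and 4.38% (CN12) at P112. For the difference between ages, Tph2 and Ddc were under it in CN3/4 (2.34% of all genes) and Gch1 in SC (6.37%), and none in CN10 (7.84%) or CN12 (3.36%). The CN3/4 cases rested on 1 library, whose levels were known when the genes were listed, so they are a description. The DESeq2 Wald test called 1 gene, Tph2 in CN10 P112, on 0 counts in each mSOD library and 0, 0 and 2 counts in wild type. A p that misses the threshold does not show that levels were equal, and these p-values measure the spread between libraries.

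In CN10, where most of these counts lay, no estimate passed the test. Among the 5 genes found in every CN10 library, the largest estimate was that of Dbh at P56. It had a log2 difference (mSOD minus wild type) of -1.28 (SE 0.71, adjusted p 0.43), and leaving out 1 library moved it between -1.73 and -0.60. Its P56 ranges overlapped in CPM (29.58 to 83.72 in wild type, 3.79 to 30.12 in mSOD) and lay apart in RPKM. The TMM factors that enter CPM were 0.861 to 0.911 in these mSOD libraries and 1.004 to 1.066 in wild type. The part of this scaling was not tested. At P112 the Dbh difference was -0.11 (SE 0.70). Th differed by -0.21 (SE 0.67) at P56 and -0.71 (SE 0.67) at P112, and Gch1 by -0.80 (SE 0.79) and -0.62 (SE 0.78), its P56 ranges also overlapping in CPM (from 6.66 upwards in wild type, 3.24 to 7.72 in mSOD) and apart in RPKM. Slc18a2 was 0.39 (SE 0.42) at P56 and -0.37 (SE 0.42) at P112, and Ddc 0.49 (SE 0.73) and -0.26 (SE 0.73). The sign of Th at P56 (-0.48 to 0.24) and of Dbh at P112 (-0.79 to 0.17) turned with 1 library left out. With all libraries in the edgeR fit, no adjusted p of these 5 genes was below 0.43. With 1 library left out the lowest was 0.323, for Dbh at P56.

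In CN3/4 at P112 the low unadjusted p-values rested on 1 library, wild type replicate 3. Its levels were known when the genes were listed, so the folds of group means and p-values given here are a description. Tph2 was at least 41.1-fold lower in mSOD, counted at the floor of 3 counts per library (edgeR unadjusted p 0.000784, adjusted p 1), and Slc6a4 at least 16.5-fold lower (unadjusted p 0.0459, adjusted p 1). Ddc had a log2 difference of -1.998 (SE 0.86, unadjusted p 0.0251, adjusted p 1). Without wild type replicate 3 Tph2 was at the floor and Slc6a4 at 0 in both genotypes, and the Ddc difference was 1.32 (edgeR adjusted p 0.897). With no filter on low counts edgeR called Tph2, Ddc and Slc6a4 in this comparison, with adjusted p-values of 1.37e-09, 5.39e-06 and 0.000853, among 32 called genes of 40285, with that library still included.

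Gch1 in SC at P112 was the one case in which the genotypes did not overlap among those with a low unadjusted p. It had 10, 12 and 13 counts in mSOD and 1, 1, 0, 8 and 2 in wild type, and the log2 difference was 2.32 (SE 0.92, unadjusted p 0.0154, adjusted p 0.351, edgeR). Leaving out 1 library moved it between 1.75 and 2.98. At P56 all 5 mSOD libraries of SC were at the floor for Gch1, so no fold is given. Marker sums of cell types were read in the same P112 groups, where no single marker passed edgeR's test. Microglia markers summed to 6.75 to 26.4 CPM in mSOD and 0.931 to 6.23 CPM in wild type, without overlap. Astrocyte markers summed to 103.6 to 108.4 and 45.0 to 103.4 CPM, apart by a narrow margin. Oligodendrocyte markers summed to 349.7 to 657.3 CPM in mSOD and 232.4 to 769.3 CPM in wild type, with overlap. Inhibitory neuron markers summed to 162.6 to 499 CPM in mSOD and 43.5 to 323.6 CPM in wild type, and motor neuron markers to 3679 to 5109 and 4274 to 6878 CPM. Their part in the Gch1 difference was not tested. Tph2 in CN12 at P112 fell below the threshold only when libraries of 1 name prefix were used: within P10814 the log2 difference was -3.28 (edgeR adjusted p 0.0444), on 0 and 8 counts in mSOD against 54, 37 and 31 in wild type. The third mSOD library, of prefix P11355, had 47 counts, and with it the difference was -2.77 (SE 1.68, adjusted p 1).

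**Figure D4:**
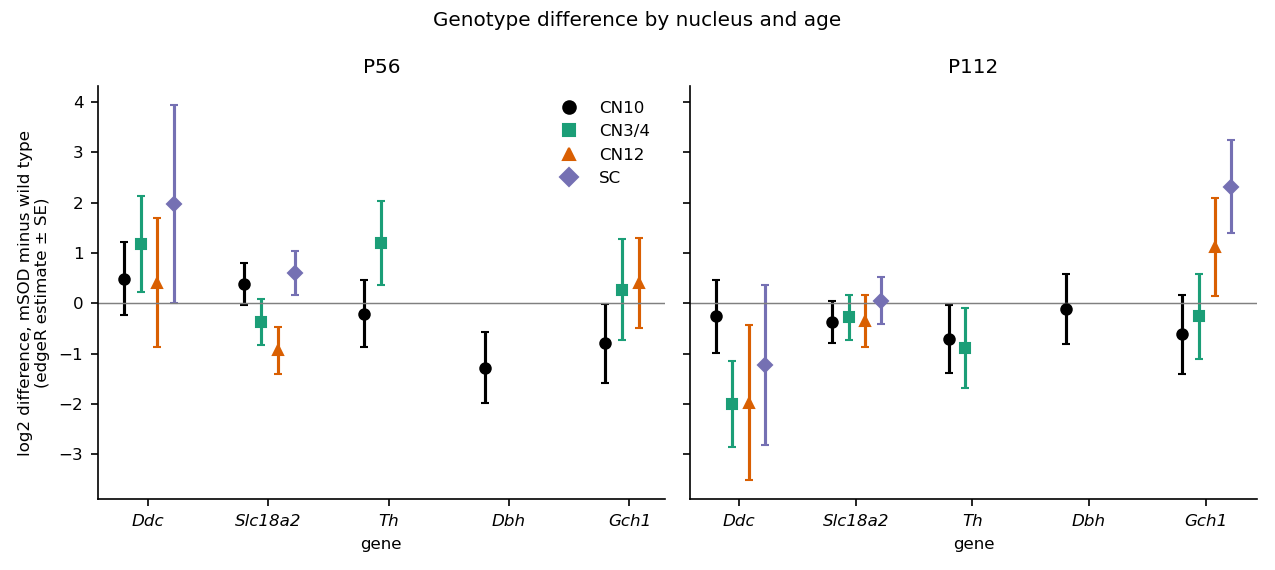
Log2 difference between mSOD and wild type (edgeR estimate ± SE) for Ddc, Slc18a2, Th, Dbh and Gch1 at P56 (left) and P112 (right), by nucleus. Cases in which either genotype had no library above 3 counts are not drawn. No estimate has an adjusted p under 0.05, and the highest point at P112 is Gch1 in SC at 2.32.

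A wider set of 72 pathway genes in 9 lists was read in the same way, of which 49 passed the filter. A gene found at 1 site alone can pass the filter through that site. In the 8 genotype comparisons and the 4 differences between ages, edgeR called 0 of the 49. At an unadjusted p under 0.05 there were 1 to 9 of them per comparison. In the order CN3/4, CN10, CN12 and SC there were 7, 9, 2 and 5 at P56, beside 3.2%, 13.4%, 9.74% and 12% of all genes. At P112 there were 1, 3, 1 and 4, beside 3.17%, 3.62%, 4.38% and 9.86%. For the differences between ages there were 3, 1, 3 and 1, beside 2.34%, 7.84%, 3.36% and 6.37%. Nearest to the threshold for adjusted p, and chosen after their values were seen, were Slc7a5 and En1, both in SC. Slc7a5, an amino acid transporter, had a log2 difference of 1.43 at P56 (SE 0.38, adjusted p 0.0638, edgeR). En1, a homeobox gene, had one of 3.28 at P112 (SE 0.85, adjusted p 0.0655, edgeR). DESeq2 called both, with adjusted p-values of 0.0212 and 0.0105, among 318 and 206 called genes of 18493. In SC at P112 the microglia and astrocyte marker sums lay apart between genotypes, astrocytes narrowly, while oligodendrocyte and inhibitory sums overlapped. The part of these cells in the En1 difference was not tested.

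The nuclei were compared for these other genes in wild type. Their lists follow pathway roles but were drawn up with earlier results of these data known, so their counts and p-values are a description. Genes given below with a p-value were named for having the smallest p per direction in the same comparison. Between CN10 and CN12, 22 of 49 passed edgeR's test (15 higher and 7 lower in CN10), where 29.9% of all genes passed (14.4% higher, 15.4% lower). Against CN3/4 it was 34 of 49 (20 higher, 14 lower) beside 37.9% of all genes, and against SC 25 of 49 (13 higher, 12 lower) beside 37.7%. The 3 comparisons share the CN10 libraries and are not independent. Median log2 differences of the 49 were 0.14, 0.46 and -0.12, beside -0.02, -0.03 and -0.01 over all genes.

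Of 7 listed regulators of catecholaminergic neurons, 4 passed the filter on low counts. These 4 were higher in CN10 than in CN12, CN3/4 and SC, beside 14.4%, 18.9% and 18.4% of all genes. The 3 that did not pass, Hand2, Lmx1a and Pitx3, had 0, 0 and at most 2 counts in CN10 libraries, and Phox2a and Tfap2b had counts chiefly in CN10, so passing the filter was not independent of the CN10 level. Nr4a2 was higher by 7.12 (SE 0.61) against CN12, 7.01 (SE 0.60) against CN3/4 and 6.26 (SE 0.66) against SC. Phox2a, a homeobox gene of noradrenergic neurons, was at least 4.32-fold higher than in CN3/4 and at least 2.25-fold higher than in SC. Tfap2b, a transcription factor, was at least 10.8-fold higher than in CN12, and higher by 5.84 (SE 1.03) than in CN3/4 and by 5.63 (SE 1.16) than in SC on the log2 scale.

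Genes that make and recycle tetrahydrobiopterin, the cofactor that Gch1 starts, were higher in CN10 or did not pass, with 1 exception. Of 7 tested, 4 were higher than in CN12, 4 higher and 1 lower than in CN3/4 and 3 higher than in SC. Over all genes 14.4%, 18.9% and 18.4% were higher in CN10 than in CN12, CN3/4 and SC, and 19% were lower than in CN3/4. Pcbd1, which recycles the cofactor, stood at 324 ± 56.2 CPM (SD, n = 6) in CN10, 116 ± 11.1 CPM (n = 6) in CN12, 23.1 ± 8.84 CPM (n = 6) in CN3/4 and 46.7 ± 12.8 CPM (n = 10) in SC. Its log2 differences were 1.48 (SE 0.21), 3.82 (SE 0.23) and 2.65 (SE 0.24) against CN12, CN3/4 and SC. Pts, the step after Gch1, was higher by 1.66 (SE 0.27, adjusted p 1.31e-06) than in SC.

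Of 5 enzymes that break monoamines down, 2 were higher in CN10 than in CN12, and 2 higher and 1 lower than in CN3/4. Against SC, 3 were higher and 1 lower. Over all genes 29.9%, 37.9% and 37.7% passed against CN12, CN3/4 and SC, with 14.4%, 18.9% and 18.4% higher in CN10. Maoa, a monoamine oxidase, was higher in CN10 by 1.82 (SE 0.21, adjusted p 7.66e-10) against CN12 and 2.35 (SE 0.22, adjusted p 5.21e-13) against CN3/4 on the log2 scale. Maob had 71 to 362 counts in CN10 and at most 20 in a CN12 library. Slc6a3 was higher than in CN12 by at least 12.1-fold. Slc29a4, a low-affinity monoamine transporter, was lower than in CN12 (log2 difference -0.86, SE 0.23, adjusted p 0.00247).

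Receptors went both ways. Against SC, 6 of 10 tested serotonin receptors passed and 6 were lower in CN10, beside 37.7% of all genes passing and 19.3% lower. Against CN3/4, 6 passed (3 higher, 3 lower) beside 37.9% of all genes. Against CN12, 5 passed (1 higher, 4 lower) beside 29.9%. The serotonin receptors named next are lower ones only. Htr7 was lower than in CN12 (log2 difference -2.70, SE 0.43) and SC (-3.62, SE 0.44), and Htr1b was lower than in both (-2.73, SE 0.49, and -2.62, SE 0.53). Htr3a, a subunit of the serotonin-gated ion channel, was lower than in CN12 (-6.14, SE 0.97) and CN3/4 (-6.83, SE 0.95). Htr1d was at least 19.7-fold lower than in CN3/4. The adrenergic receptor Adra2a, through which noradrenaline dampens its own neurons, was higher than in CN3/4 by 5.44 (SE 0.42, adjusted p 1.46e-15). The midbrain homeobox genes En1 and En2 were lower in CN10 than in CN3/4, by at least 36.1-fold for En1 and 8.55-fold for En2, and En1 was at least 2.63-fold lower than in SC.

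**Figure D5:**
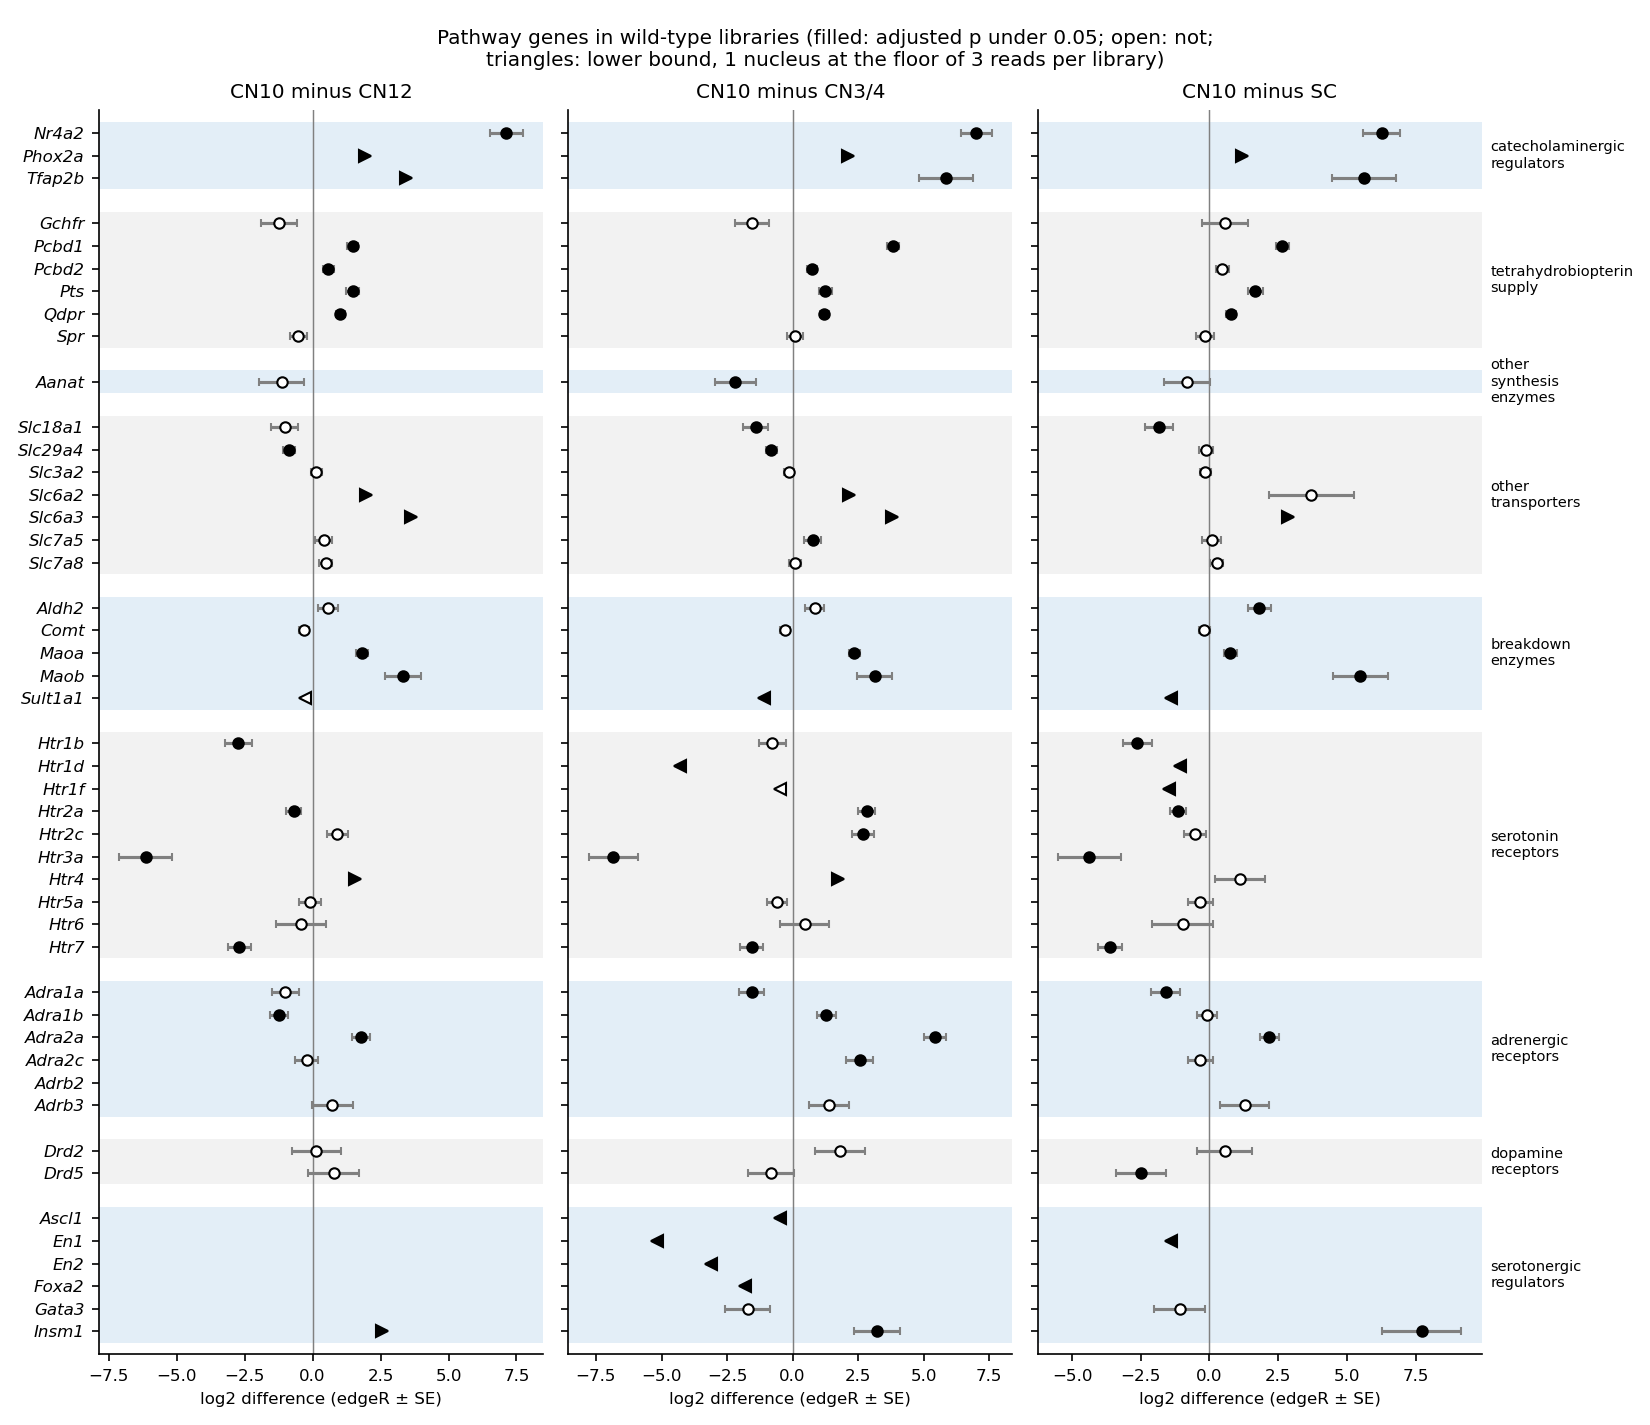
Log2 difference between CN10 and CN12, CN3/4 and SC in wild-type libraries for tested pathway genes, grouped by list, as edgeR estimates ± SE. Filled symbols have an adjusted p under 0.05. Triangles are lower bounds where 1 site has no library above 3 counts, and genes with no bound above 1-fold or with both sites at that floor are not drawn. Genes not reported here are also not drawn. The catecholaminergic regulators drawn at the top are filled and right of 0 in all panels.

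By Pearson correlation of log2 CPM over the 54 libraries, the genes whose pattern was most like that of Dbh were Krt90 (0.974), D930028M14Rik (0.973) and the dopamine transporter Slc6a3 (0.972). For Th they were Cpne7 (0.956), Tbx20 (0.954) and Scn3b (0.949), and for Ddc Kcna5 (0.936), Nnat (0.934) and Snhg18 (0.928). Slc18a2 was followed most closely by Gm44644 (0.919), Dcaf12l1 (0.917) and Chrna5 (0.910), and Gch1 by Pnma3 (0.820), Wasf2 (0.805) and S100a11 (0.788). These values describe a set in which 12 libraries are from CN10, so any gene high in that nucleus scores well. The ranking depended on the measure: by Spearman correlation Gm44644 and Chrna5 were at 0.680 and 0.603 with Slc18a2. The 3 genes then closest to Slc18a2 were Gpm6a (0.893), Retreg1 (0.876) and Nap1l5 (0.873). For Tph2 the closest were Siglecf (0.601), 9530018F02Rik (0.552) and Dcn (0.545), and for Slc6a4 Gm45662 (0.499), Gm47016 (0.493) and Gm42615 (0.488), low values in sparse counts from which nothing was read. Within the 12 CN10 libraries alone the closest genes were others: Tmem184c for Ddc (0.983), Cbx5 for Slc18a2 (0.956), Mmp24 for Dbh (0.938), Tgm2 for Th (0.936) and Eva1c for Gch1 (0.923).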

How the data were processed

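The authors deposited 1 table of raw read counts, whole numbers by gene for 54 libraries, and 1 table of RPKM, which they scaled to gene length and library size. Per the submitters' processing notes STAR 2.7.0e and the build mm39 (GRCm39) were used. The counting program and annotation were not given in the sources used here. For each of the 8 genes, count and RPKM were 0 in the same libraries. The members and lists were chosen with earlier results of these data known. Named were all 8 genes, pathway genes called for genotype, the 4 pathway genes per direction with the smallest p in each CN10 comparison, the 3 most similar genes per member, and markers by list. Some genes that this rule would name are not reported here, and counts by list include them.

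All 54 libraries entered 1 fit in edgeR 4.0.16 (R 4.3.3): filterByExpr, TMM, 16 group means, a term for library-name prefix, quasi-likelihood F test, Benjamini-Hochberg adjustment over 18493 genes, threshold 0.05. The prefixes P11355, P10814 and P6362 are parts of library names. The SOD1 entry, taken here as the human transgene, stayed in library sizes and out of the counts of genes. CPM used TMM-scaled sizes, with a prior count of 2 for log2 CPM. The floor was 3 counts per library. The script was tested on simulated data. Alternatives were DESeq2 1.42.0, RLE size factors, no filter, no prefix term, only the groups compared, 1 prefix at a time, each library left out, and other scales and correlations. Promoters came from RefSeq on GRCm38.p6, with 9 windows for the 8 genes. Groups of 3 to 5 libraries limit the precision of each mean, and labels do not pair animals.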

Additional observations from a re-analysis of the deposited data

Results flagged for a closer look

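Of 13 pairs of a gene and a group of 5 libraries that could be examined, 4 held 1 library far from the others, where chance gives about 1 in 20 for values without ties. These counts are sparse, and in 2 of the 4 cases the other 4 libraries were all at 0, so the chance rate here is not known. Only SC had groups of 5 libraries, so all 4 had to fall there, and their counts were few. Tph2 in SC P112 wild type replicate 4 was at 7.45 CPM (24 counts), with 0 to 0.931 CPM in the other 4 libraries. Tph2 in SC P56 mSOD replicate 3 was at 2.25 CPM (4 counts), with 0 to 0.439 CPM in the others. Ddc in SC P56 wild type replicate 1 was at 3.27 CPM (12 counts) and Dbh in SC P56 mSOD replicate 4 at 2.37 CPM (8 counts), and each was at 0 in the other 4 libraries of its group. The groups of 3 libraries, which are those of the cranial nuclei and SC P112 mSOD, were not examined in this way.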

How the results depend on the processing

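The count of monoamine genes passing the threshold stayed at 0 in all but 4 of 172 refits of the genotype and age comparisons. The 4 were no filter on low counts in CN3/4 P112 (3 genes) and in the difference between ages in CN3/4 (2), DESeq2 in CN10 P112 (1), and libraries of prefix P10814 alone in CN12 P112 (1). Of the pathway genes, no filter gave 1 (Maob) in CN3/4 P56, 1 (Htr7) in CN10 P56, 1 (Slc7a5) in SC P56 and 1 (En1) in SC P112. No prefix term gave 2 (Slc7a5 and Maoa) in SC P56, where 178 of 18493 genes were called. DESeq2 gave 1 (Slc7a5) in SC P56 and 1 (En1) in SC P112, where 318 and 206 of 18493 genes were called. Prefix P6362 alone left 1 mSOD library in SC P112, where the log2 difference of En1 was 7.98. The cause was not tested. Leaving out 1 library gave 0 to 1 pathway genes in SC P56 (1 without mSOD replicate 5, Slc7a5) and 0 to 1 in SC P112 (1 without wild type replicate 1 and 1 without mSOD replicate 1, En1). Against CN12, CN3/4 and SC, 19 to 23, 33 to 37 and 22 to 26 pathway genes were called in CN10 with 1 library left out (22, 34 and 25 with all). Differences that changed sign with 1 library left out were Tph2 (-9.94 to 0.30) and Ddc (-2.56 to 1.32) in CN3/4 P112, Ddc in the CN3/4 difference between ages (-4.10 to 0.14), each on leaving out CN3/4 P112 wild type replicate 3, Th in CN10 P56 (-0.48 to 0.24) and Dbh in CN10 P112 (-0.79 to 0.17). For Th the sign changed to 0.15 without mSOD replicate 3 and to 0.24 without wild type replicate 3, and for Dbh to 0.17 without mSOD replicate 1 and to 0.10 without mSOD replicate 2. On plain-total CPM and RPKM the ratio of the CN10 median to the next nucleus was 10.1 and 10.2 for Slc18a2 (9.36 with TMM), 58.8 and 45.0 for Ddc (60.8), 14.3 and 11.7 for Th (15.0), and 4.19 and 4.29 for Gch1 (4.34). Of 72 correlations under other settings, 14 moved, all of them with Spearman in place of Pearson, for Slc18a2, Ddc, Th and Dbh. Fitted Tph2 values with 1 side at the floor are no bounds. Low counts, as for Tph2, Slc6a4 and Fev outside a few libraries, limit any genotype comparison of these genes. No paired analysis was possible because the labels give no replicate numbers shared between groups.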
